A study of Homo sapiens with 8 samples.

Results

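Clustered protocadherins are cell adhesion proteins encoded by 53 genes that lie in 3 neighbouring clusters, alpha, beta and gamma, on human chromosome 5. They were taken here as the protein-coding genes of GENCODE 44 on that chromosome whose symbols begin with PCDHA, PCDHB or PCDHG, which gave 15 alpha, 16 beta and 22 gamma genes out of 19970 protein-coding genes on chromosomes 1 to 22 and X. Open chromatin around them was mapped in the human osteosarcoma cell line U2OS by FAIRE-seq, in which chromatin is fixed with formaldehyde and sheared, nucleosome-free DNA is recovered from the aqueous phase of a phenol-chloroform extraction, and peaks of the sequenced fragments mark open sites. There were 8 libraries from 4 clones, each grown from a single cell. WT_4 and WT_5 were wild type (WT), and in KO_C5 and KO_D2 the gene for ZBTB48, which binds telomeric repeats and some promoters through its zinc fingers, was knocked out (KO). Every clone was sequenced once untreated and once after interferon gamma (IFNγ) at 250 U/ml. The treatment lasted 24 h per the labels but longer per the study's own text, so its duration is uncertain. Replicate 1 is clone WT_4 or KO_C5 and replicate 2 is clone WT_5 or KO_D2, so each genotype rests on 2 clones, and a difference between genotypes cannot be told apart from one between clones.

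In the alpha and gamma clusters each gene has its own promoter and its own large variable exon, which is spliced to a short set of constant exons shared by the whole cluster, while the beta genes are single-exon genes. The last genes of the alpha and gamma clusters, PCDHAC1, PCDHAC2, PCDHGC3, PCDHGC4 and PCDHGC5, are the C-type genes. In neurons, most other isoforms are switched on in different combinations from cell to cell, while C-type isoforms are expressed more broadly, and the choice depends on DNA methylation and on loops that CTCF and cohesin form between promoters and distal enhancers. Most promoters hold a conserved sequence element whose core reads CGCT.

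The promoters of PCDHAC1, PCDHAC2 and PCDHGC3 were the ones found open in most libraries, PCDHGB4 was open in 2, and PCDHGC4 is shown as a C-type promoter with no peak. Each sequence is a RefSeq window on GRCh38.p14, from 250 bases before to 50 bases after the annotated start, on the plus strand, 5′ to 3′. Capitals mark CGCT or its reverse complement AGCG, and overlapping matches run together.
PCDHAC1 (chr5:140926049-140926348): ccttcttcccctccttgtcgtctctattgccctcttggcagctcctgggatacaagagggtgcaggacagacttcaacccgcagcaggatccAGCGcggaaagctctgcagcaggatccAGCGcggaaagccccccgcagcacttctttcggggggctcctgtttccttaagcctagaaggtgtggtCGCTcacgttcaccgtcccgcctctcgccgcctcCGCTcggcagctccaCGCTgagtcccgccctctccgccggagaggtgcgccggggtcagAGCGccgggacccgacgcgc
PCDHAC2 (chr5:140966226-140966525): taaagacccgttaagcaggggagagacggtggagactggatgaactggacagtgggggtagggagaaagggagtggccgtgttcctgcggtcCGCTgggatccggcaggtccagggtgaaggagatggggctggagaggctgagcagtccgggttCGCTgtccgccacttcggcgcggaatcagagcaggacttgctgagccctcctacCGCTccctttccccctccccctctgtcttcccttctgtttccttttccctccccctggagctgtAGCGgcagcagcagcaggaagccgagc
PCDHGC3 (chr5:141475716-141476015): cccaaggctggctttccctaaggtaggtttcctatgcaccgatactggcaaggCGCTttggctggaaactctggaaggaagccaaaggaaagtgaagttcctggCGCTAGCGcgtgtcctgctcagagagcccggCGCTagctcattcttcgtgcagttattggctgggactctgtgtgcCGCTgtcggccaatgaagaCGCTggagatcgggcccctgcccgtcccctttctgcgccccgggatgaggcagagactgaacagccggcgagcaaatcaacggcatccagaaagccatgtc
PCDHGC4 (chr5:141484780-141485079): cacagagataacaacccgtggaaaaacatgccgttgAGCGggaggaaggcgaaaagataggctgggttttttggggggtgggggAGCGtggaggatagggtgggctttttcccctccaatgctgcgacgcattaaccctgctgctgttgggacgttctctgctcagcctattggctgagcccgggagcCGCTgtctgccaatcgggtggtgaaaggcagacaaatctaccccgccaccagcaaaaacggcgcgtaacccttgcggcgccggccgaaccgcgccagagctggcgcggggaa
PCDHGB4 (chr5:141387448-141387747): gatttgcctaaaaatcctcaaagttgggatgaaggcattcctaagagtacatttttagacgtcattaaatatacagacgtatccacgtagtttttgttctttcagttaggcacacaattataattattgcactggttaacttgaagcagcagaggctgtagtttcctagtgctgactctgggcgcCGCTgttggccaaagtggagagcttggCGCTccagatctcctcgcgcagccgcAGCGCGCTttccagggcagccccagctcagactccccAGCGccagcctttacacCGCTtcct
The PCDHAC1, PCDHGC3 and PCDHGB4 windows hold 6 matches to CGCT each, the PCDHAC2 window 4 and the PCDHGC4 window 3. Several of those of PCDHGC3 and PCDHGB4 lie close together in the bases before the start. A match this short does not by itself show that the conserved element is present. Over all promoter windows, 70.01% held a match, with 2.24 on average.

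Few clustered protocadherin promoters were open in U2OS cells, and those that were open in most libraries belonged to C-type genes. A promoter was called open in a library where a listed peak came within 500 bp of any annotated transcription start site (TSS) of the gene. By this measure 7 of 53 genes (13.2%) had a promoter peak in at least 1 library, compared with 14428 of all protein-coding genes (72.2%). In single libraries, 1 to 5 of the 53 genes were open (1.89% to 9.43%), and 57.8% to 68.3% of all protein-coding genes. PCDHAC1 was open in all 8 libraries, PCDHAC2 and PCDHGC3 in 7, PCDHGB4 in 2, and PCDHA5, PCDHA11 and PCDHB2 in 1 library each. The other 46 genes had no promoter peak in any library, among them 11 alpha, 15 beta and 20 gamma genes and the C-type genes PCDHGC4 and PCDHGC5. The lists hold only peaks that passed the caller's threshold, so a gene without a peak was not detected as open, which does not show that it was closed. Open promoters shared by all 8 libraries made up 1.89% of the clustered genes and 51.2% of all protein-coding genes.

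**Figure D1:**
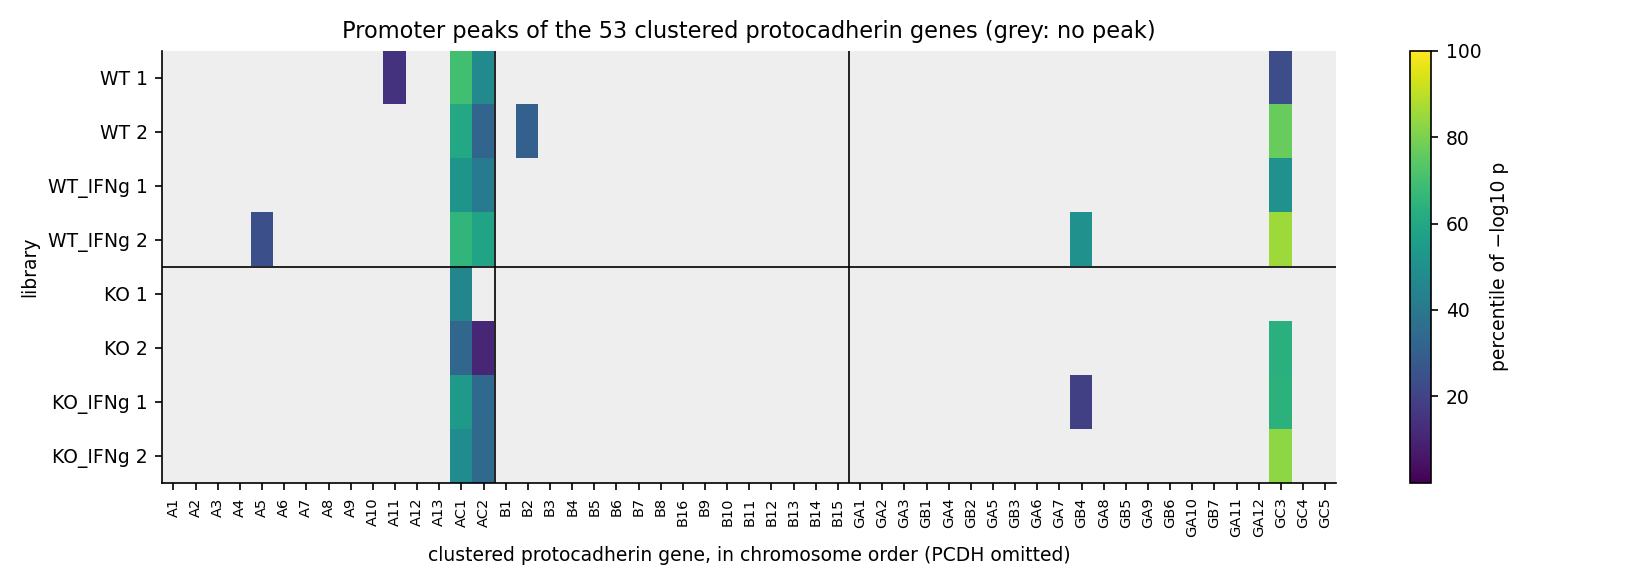
Promoter peaks of the 53 clustered protocadherin genes, in chromosome order with vertical lines between the alpha, beta and gamma clusters, in each of the 8 libraries. Colour gives the percentile of a peak's −log10 p within its own list, grey means no peak, and the only columns filled in most rows are AC1, AC2 and GC3.

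Peak strength was expressed as the percentile of the authors' −log10 p within the peak list of the same library, with 0 for no peak, because the lists differed in length from 16730 to 37533 peaks. PCDHAC1, the first C-type alpha gene, ranged from the 33.1st to the 69.6th percentile. In every library it lay below the median of all protein-coding promoters with a peak there, which was 65.6 to 81.2. In the WT libraries its percentile was 69.6 in WT_4 and 60.4 in WT_5 without treatment, and 51.8 and 65.8 with IFNγ. In the KO libraries it was 46.1 in KO_C5 and 33.1 in KO_D2 without treatment, and 54.1 and 48.7 with IFNγ. The WT and KO values overlapped, since treated KO_C5 lay above treated WT_4. The peak was 598 to 1067 bp wide, and its summit lay 338 to 374 bp downstream of the gene's first TSS in every library, past the end of the printed window.

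PCDHAC2, the second C-type alpha gene, was open in every library except that of untreated KO_C5. Its percentiles were 47.6 in untreated WT_4, 32.4 in untreated WT_5, 41.2 in treated WT_4 and 58.4 in treated WT_5. In the KO clones they were 0 in untreated KO_C5, 10.7 in untreated KO_D2, 34.0 in treated KO_C5 and 34.7 in treated KO_D2. The lowest WT value, that of untreated WT_5, fell below both treated KO values. In every library PCDHAC2 also lay below the median of all protein-coding promoters with a peak. The summit lay 128 to 224 bp downstream of the TSS in the 4 WT libraries and in untreated KO_D2, and 46 and 53 bp upstream of it in treated KO_C5 and KO_D2.

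PCDHGC3, the first C-type gamma gene, reached the highest percentile of any clustered gene and had the widest spread between libraries. Its percentile was 23.6 in untreated WT_4, 76.7 in untreated WT_5, 50.5 in treated WT_4 and 85.5 in treated WT_5. In the KO clones it was 0 in untreated KO_C5, 63.3 in untreated KO_D2, 64.3 in treated KO_C5 and 83.0 in treated KO_D2. At each treatment the WT_5 and KO_D2 libraries lay above those of WT_4 and KO_C5, so the spread within a genotype was wider than the gap between genotypes. The mean over the 2 libraries of a clone was 37.1 in WT_4, 81.1 in WT_5, 32.2 in KO_C5 and 73.1 in KO_D2. Only in treated WT_5 and treated KO_D2 did PCDHGC3 lie above the median of all protein-coding promoters with a peak (81.2 and 74.5). The summit stayed 4 to 52 bp upstream of the TSS, inside the printed window. For comparison, the promoter of TAF7, a general transcription factor gene that lies between the beta and gamma clusters and was chosen after its values were seen, ranged only from the 66.9th to the 74.3rd percentile over the same libraries.

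The remaining open promoters were seen in few libraries. PCDHGB4, a gamma gene of the B type, had a peak in treated WT_5 (fold 11.5, percentile 50.5) and in treated KO_C5 (fold 7.01, percentile 19.1), with summits 3 and 34 bp upstream of the TSS. PCDHA5, an alpha gene, had a peak only in the list of treated WT_5 (fold 6.22, percentile 24.4). The PCDHA5 summit lay 303 bp downstream of the first TSS, inside the gene's variable exon. PCDHB2, a beta gene, had a peak only in the list of untreated WT_5 (fold 7.41, percentile 30.6), with its summit 1 bp upstream of the TSS. The PCDHA11 peak of untreated WT_4 (fold 5.44, percentile 14.7) lay 2787 bp downstream of the gene's first TSS and counted as a promoter peak only because a shorter transcript is annotated to start near it. Its summit rested on 8 fragments, compared with 10 for PCDHA5 and 14 for PCDHB2. All 3 peaks seen in a single library came from WT clones, those of PCDHA5 and PCDHB2 from the longest lists, with 37533 and 29567 peaks. Over all protein-coding genes, 753 promoters had a peak in a single library. How many of those were in WT libraries was not counted, so no difference between genotypes is read from this.

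**Figure D2:**
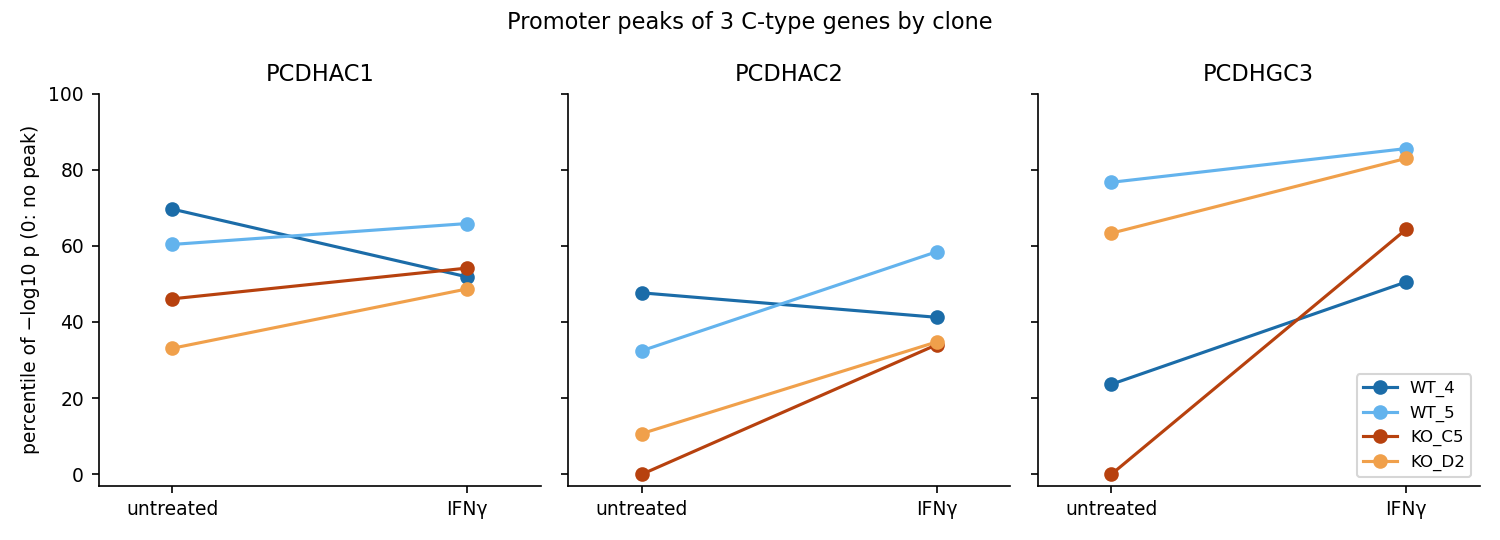
Percentile of −log10 p at the promoters of PCDHAC1, PCDHAC2 and PCDHGC3 in untreated and IFNγ-treated libraries, with 1 line per clone and 0 for no peak. WT_4 falls with IFNγ at PCDHAC1 and PCDHAC2 and rises at PCDHGC3, and the other 3 clones rise at all 3 genes.

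The comparison of WT with KO clones asked whether ZBTB48 is needed for open chromatin at these promoters. No clustered protocadherin promoter was open throughout the WT libraries and absent from the KO libraries, a pattern that 0.326% of the 14428 promoters with any peak showed, and none had the opposite pattern, which 0% of all promoters showed. None had WT percentiles all above the KO percentiles, against a background of 5.98%, nor KO percentiles all above the WT percentiles, against 0.222%. The WT minus KO difference in mean percentile was 16.4 at PCDHAC1 (WT clones 61.9 ± 1.67 and KO clones 45.5 ± 6.53, mean ± SD, n = 2 each), 25.1 at PCDHAC2 (44.9 ± 0.708 and 19.9 ± 4.04) and 6.44 at PCDHGC3 (59.1 ± 31.1 and 52.6 ± 29.0). Both WT clone means were above both KO clone means at PCDHAC1 and PCDHAC2, and they overlapped at PCDHGC3. With all lists shortened to the same length, the clone means overlapped at all 3 genes, and the difference was 9.89 at PCDHAC1 and 14.5 at PCDHAC2. With 2 clones against 2, the two-sided exact permutation test allows no p under 0.333, which PCDHAC1 and PCDHAC2 reached, as did 4124 of the 14428 promoters. PCDHGC3 had p = 0.667 in the exact permutation test, and the adjusted p was 1 for all 3 genes. At the 10217 promoters open in all 8 libraries the median WT minus KO difference was 3.54 percentile points, and 78.2% had a difference above 0.

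The deposited fold enrichment, which fits the fragment pileup at the summit plus 1 over a local background plus 1, separated the genotypes at PCDHAC1, but the pileup did not. Fold enrichment at PCDHAC1 was 34.4, 15.3, 15.4 and 19.8 in untreated WT_4, untreated WT_5, treated WT_4 and treated WT_5. It was 9.92, 8.63, 11.6 and 8.24 in untreated KO_C5, untreated KO_D2, treated KO_C5 and treated KO_D2, so all WT values were above all KO values. The same held for 23.6% of the promoters open in all 8 libraries, and the opposite order for 0.00979% of them. The number of fragments at the PCDHAC1 summit, recovered from the fold and the −log10 p, overlapped between WT (24 to 56) and KO libraries (26 to 45), while the local background did not (WT 0.621 to 1.02 fragments, KO 2.13 to 3.73). Where a peak was present, fold enrichment also separated the genotypes at PCDHAC2 (WT 7.60 to 14.5, KO 5.50 to 7.32), but not at PCDHGC3 (WT 6.64 to 48.0, KO 16.1 to 22.6). At both genes, summit fragments overlapped and the local background did not. At PCDHAC2, WT libraries had 15 to 27 fragments over a background of 0.669 to 1.10, and KO libraries 15 to 28 over 1.91 to 3.47. At PCDHGC3, WT libraries had 10 to 84 fragments over 0.621 to 1.02, and KO libraries 51 to 94 over 1.98 to 3.20. At PCDHAC1 and PCDHGC3, the background in each WT library matched the lowest value among weak peaks sampled from its list (0.621 to 1.02). Such lowest values were 0.626 to 1.08 in the KO libraries, overlapping those of WT, and the KO backgrounds at the 3 genes lay above them. In a random sample of 1000 promoters open in all libraries, of which 754 to 955 per library could be solved, the median local background was also higher in every KO library (1.91 to 3.21) than in every WT library (1.02 to 1.72). Its part in the difference in fold was not tested.

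**Figure D3:**
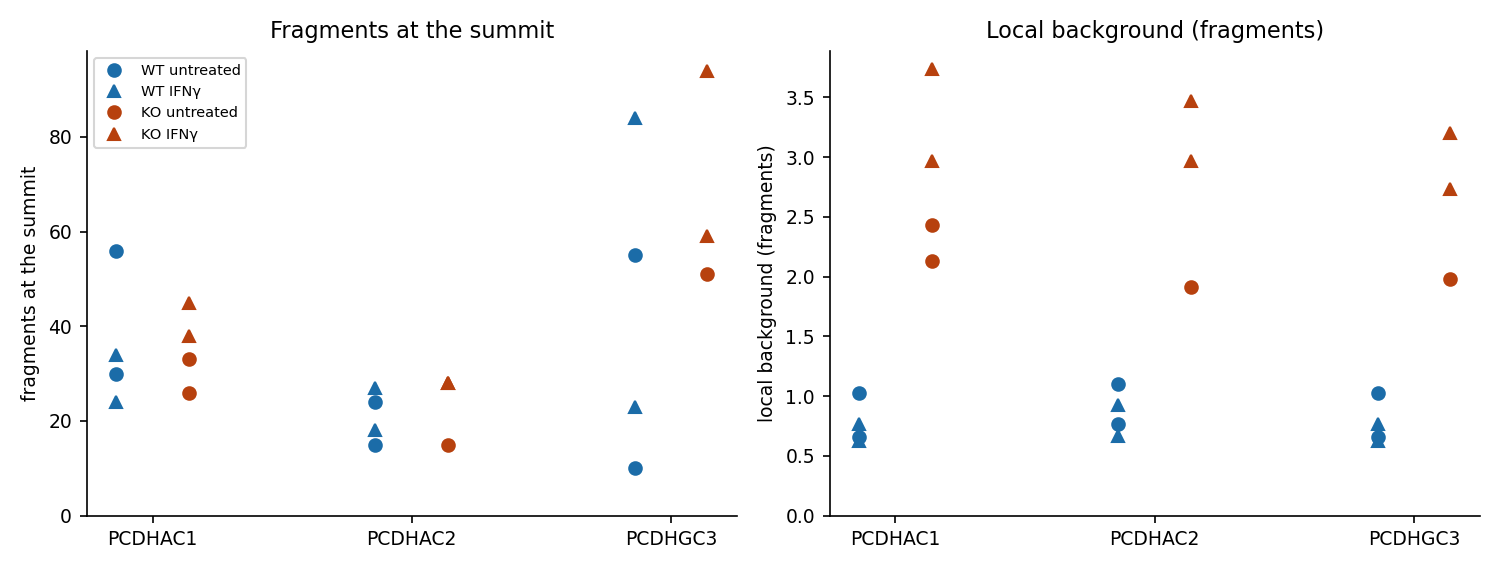
Fragments at the peak summit (left) and local background in fragments (right) at 3 C-type promoters, with 1 point per library that had a peak. The summit counts of WT (blue) and KO (red) libraries overlap at each gene, and the local background is higher in every KO library, with WT values up to 1.10 and KO values from 1.91.

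The comparison of IFNγ-treated with untreated libraries asked whether the cytokine opens or closes these promoters. No clustered protocadherin promoter was open in all treated and no untreated libraries (background 0.0347%) or the reverse (0%). Within WT clones none was gained in both (0.166%) or lost in both (0.326%), and within KO clones none was gained in both (3.15%) or lost in both (0.139%). None had treated percentiles wholly above the untreated ones (0.797%) or wholly below them (0.0485%). PCDHGC3 had a higher percentile with IFNγ in 4 of 4 clones, by 26.9 in WT_4, 8.86 in WT_5, 64.3 in KO_C5 and 19.6 in KO_D2, and the largest of these was the clone with no untreated peak. The mean rose from 40.9 ± 35.4 to 70.8 ± 16.5 (SD, n = 4 each), a difference of 29.9 that the two-sided exact permutation test did not separate from the spread (p = 0.2, adjusted p = 1). That test did not use the pairing of libraries within clones. With the clone as block, the paired exact permutation test gave p = 0.125, the smallest it allows, reached where all 4 clones move in the same direction. PCDHGC3 was 1 of 2271 promoters, out of 14428, at that value. Without the untreated KO_C5 library the difference in means was 16.3. At the protein-coding promoters open in all 8 libraries, the percentiles of that library correlated better with those of treated WT_4 (0.334) than with those of treated KO_C5 (0.0644). The percentiles were taken as deviations from the mean of each treatment. PCDHAC2 was higher with IFNγ in 3 of 4 clones, by 19.4 on average (exact permutation p = 0.2), which fell to 0.276 with lists of equal length. PCDHAC1 was higher in 3 of 4 clones, by 2.84 (exact permutation p = 0.771), a difference that was −10.9 with lists of equal length. PCDHGB4 had peaks only in 2 treated libraries, with a mean difference of 17.4 (exact permutation p = 0.429) and of 6.37 without treated WT_5. No promoter of the 14428 tested passed an adjusted p of 0.05 in this test, and 122 had an unadjusted p below 0.05, all at the smallest p that the test allows, 0.0286. Over the promoters open in all 8 libraries the median difference was 2.22 percentile points. Treated lists were longer than untreated ones in 3 of 4 clones.

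Across the clusters and 10 kb on either side, the lists held 72 peaks that joined into 26 open regions, 12 in the alpha, 4 in the beta and 10 in the gamma span. The 7 promoter regions were joined by 11 regions inside the variable exons or single exons of the genes, 1 in the PCDHA14 pseudogene, 2 at other gene starts and 5 elsewhere. Of the 26 regions, 17 (65.4%) had a peak in only 1 library, compared with 38.9% of the 52105 regions of the genome. Untreated WT_4 accounted for 11 of these 17. How many of the genome's single-library regions came from it was not counted, so nothing particular to the clusters is read from this. The exon regions of untreated WT_4 numbered 8 and lay in the coding exons of PCDHA1, PCDHA6, PCDHA8, PCDHA12, PCDHA13, PCDHB5, PCDHB12 and PCDHGA1. Their summits lay 1463 to 2344 bp from the first TSS of each gene and rested on 6 to 12 fragments. Treated WT_4 had such regions in PCDHA6 and PCDHGB7, treated WT_5 in PCDHGC3, and the other 5 libraries, including all KO libraries, had none. In untreated WT_4, 4.34% of all peaks of the genome lay in coding sequence more than 500 bp from any TSS. This coding share was 1.54% to 2.17% in the other WT libraries and 0.999% to 1.09% in the KO libraries, so it was lower in every KO library than in every WT library. Its part in the exon regions was not tested. Without untreated WT_4, 15 regions remained in the 3 spans.

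**Figure D4:**
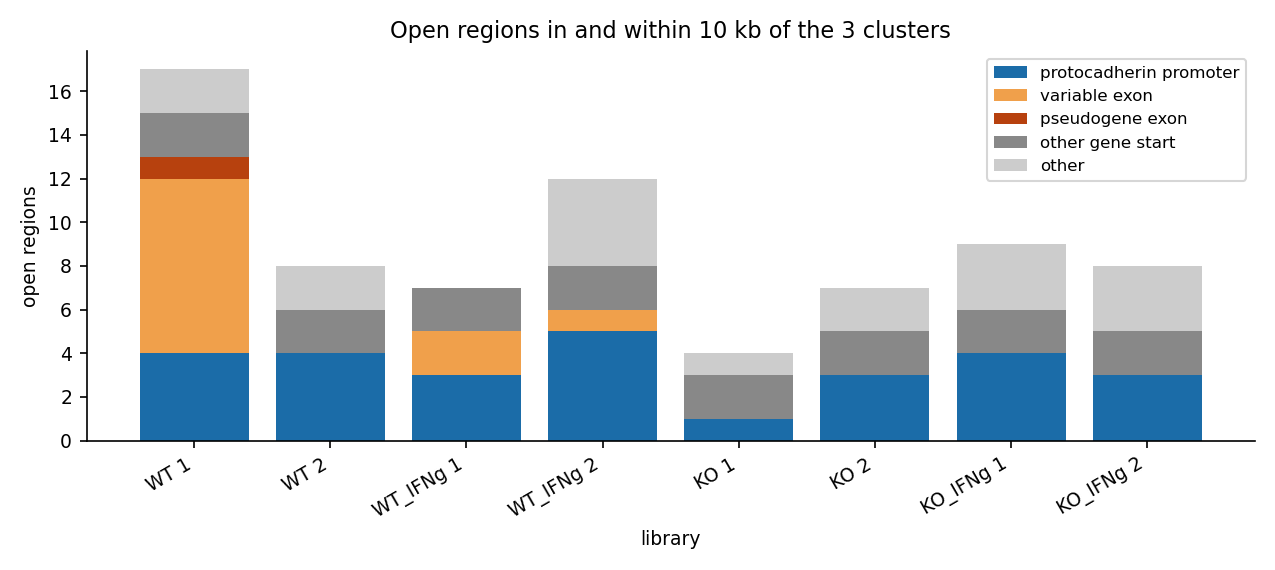
Number of open regions in each library across the 3 clusters and 10 kb on either side, stacked by what lies at the region. Untreated WT replicate 1 (clone WT_4) has 17 regions, 8 of them in variable or single exons, and the other libraries have 4 to 12.

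Of the 26 regions, 3 were open in all 8 libraries, and the share of such regions over the genome was not counted. They were the promoter of PCDHAC1, the start of TAF7, and a region 28909 bp downstream of the last alpha constant exon. This last region lies in the gap between the alpha and beta clusters. An enhancer of the alpha cluster is known to lie downstream of its constant exons, and whether this region is that enhancer was not tested. Peaks of the region spanned chr5:141041065-141041479 within 500 bp of the start of a long non-coding RNA gene, ENSG00000288892. The 300 bases around its highest summit, from GRCh38 on the plus strand with CGCT or AGCG in capitals, are shown because it was open throughout and lies between the clusters.
downstream of the alpha cluster (chr5:141041106-141041405): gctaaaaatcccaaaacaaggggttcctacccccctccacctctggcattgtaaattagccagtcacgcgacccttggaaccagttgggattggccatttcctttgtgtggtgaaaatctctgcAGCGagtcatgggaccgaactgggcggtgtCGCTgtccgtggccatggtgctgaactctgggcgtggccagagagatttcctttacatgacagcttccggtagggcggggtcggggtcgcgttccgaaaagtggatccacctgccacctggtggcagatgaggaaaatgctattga
Its percentile was 30.3 in untreated WT_4, 84.2 in untreated WT_5, 20.8 in treated WT_4 and 82.2 in treated WT_5. In the KO clones it was 27.6 in untreated KO_C5, 62.9 in untreated KO_D2, 71.9 in treated KO_C5 and 80.9 in treated KO_D2. The low libraries were both of WT_4 and untreated KO_C5, which are also the 3 libraries with the lowest PCDHGC3 values, and no genotype or treatment stood apart.

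Near the gamma constant exons, a region with its summit 3750 bp before the end of the last of these exons (chr5:141508826-141509474) was open in both WT_5 libraries and both treated KO libraries, and in no other. Its percentiles were 20.1 in untreated WT_5, 36.9 in treated WT_5, 44.6 in treated KO_C5 and 49.6 in treated KO_D2. This combination of libraries, which held the 4 longest lists, was noticed after the data were seen and occurred at 3.59% of the regions of the genome, so 1 of 26 regions was near the background. A neighbouring region 1157 bp past the end of the gamma cluster (chr5:141513244-141514383) was open in the same 4 libraries and weakly in untreated KO_D2, at percentiles of 7.87 to 61.4. Another inside DIAPH1, the formin gene that follows the gamma cluster, was open in 6 libraries at percentiles of 0.971 to 24.4.

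The promoters open in most libraries were among the richest in G and C of the clustered genes. RefSeq windows were matched for 47 of the 53 genes, as 52 windows, all of which equalled the GRCh38 sequence, and PCDHA3, PCDHA13, PCDHB6, PCDHB11, PCDHGA12 and PCDHGC5 had no entry. The PCDHAC1 window was 66.0% G + C with 27 CpG dinucleotides, that of PCDHAC2 63% with 15, and that of PCDHGC3 59.0% with 18. The 44 windows of the 40 genes with no peak had a median of 39.7% (32.3% to 65.0%) and 7 CpG, and all 35116 promoter windows of the table had a median of 58.7% and 14 CpG. High G + C did not always go with a peak, since both windows of PCDHGC4 (60.7% and 62.3%, with 23 and 24 CpG) and the richer window of PCDHGB6 (65.0%, with 25 CpG) had none. PCDHA5 and PCDHA11, seen in 1 library each, had 33.7% and 37.3%.

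**Figure D5:**
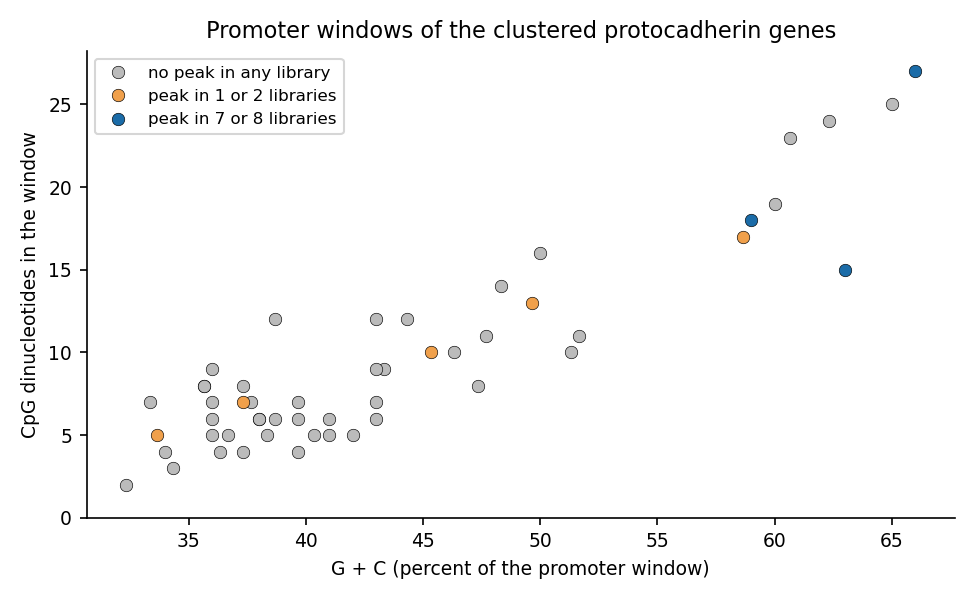
CpG dinucleotides against percent G + C in the 52 promoter windows of the clustered protocadherin genes, coloured by the number of libraries with a promoter peak. The 3 windows open in 7 or 8 libraries (blue) have 59.0% to 66.0% G + C, and windows with no peak (grey) run from 32.3% to 65.0%.

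Short motifs were searched on both strands of these windows, with overlapping matches counted. CGCT was found in 51 of 52 windows (98.1%) and in 70.01% of all promoter windows, and PCDHA9 was the gene without it. The 8 windows of the 7 genes with a promoter peak held 4.00 matches on average, those of the genes without held 2.34, and all promoter windows held 2.24. The windows with a peak were also richer in G + C (median 54.2%, and 39.7% in those without). The part of G + C in the match counts was not tested. PCDHGB4 entered through overlapping windows of 6 matches each. PCDHA5, PCDHA11 and PCDHB2, each open in 1 library, held 1, 1 and 2 matches. AGGGGGC, part of the motif bound by CTCF, was in none of the 52 windows and in 14.4% of all windows. TTAGGG, the telomeric repeat that ZBTB48 binds, was in 5 windows (9.62%, all windows 9.05%), of which PCDHGC3 was the only one with a promoter peak. GTGAGT, a control sequence of the study, was in 6 windows (11.5%, all windows 12.8%). Such matches describe these windows only.

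The genes that act on the clusters and related genes were read in the same way. For all the lists below, the shares over all protein-coding genes were 72.2% open in at least 1 library and 51.2% open in all 8. All 17 genes listed as regulators of the clusters, among them CTCF, the cohesin subunits RAD21, SMC1A and SMC3, the DNA methyltransferases and SMCHD1, had a promoter peak in at least 1 library, and 16 had one in all 8. SETDB1, a histone methyltransferase gene, was the exception with 5. CTCF lay between the 97.5th and 99.4th percentiles. Of the 11 protocadherin genes outside the clusters, 5 were open in at least 1 library and 4 in all 8, namely PCDH7, PCDH8, PCDH9 and PCDH12. None of the genes in these lists passed an adjusted p of 0.05 for treatment, and the test of genotype allows none to pass. ATF7IP, a partner of SETDB1, was the only one of the 17 regulators whose WT percentiles all lay above its KO percentiles (lowest WT 64.0, highest KO 57.7). This order held at 5.98% of the 14428 promoters with any peak, so 1 of 17 was near the background. Among 9 osteoblast and mesenchyme markers 8 were open in at least 1 library and 4 in all 8. The latter were RUNX2 (percentiles 2.56 to 40.4), SP7 (5.62 to 66.0), COL5A1 (84.6 to 94.6) and VIM (57.8 to 91.4). COL1A1 was open in 7 libraries, SPARC in 5, ALPL in 4, TWIST1 in 1 and COL1A2 in none. Among 4 blood markers 2 were open, in 1 library each, with PTPRC and CD3E in none. The 8 neuron markers were all open in at least 1 library and 6 in all 8. MAP2 was the only one of them with WT percentiles all above the KO ones, again against a background of 5.98%. Of 4 epithelium markers, EPCAM, KRT8 and KRT18 were open in all 8 libraries and CDH1 in none. The knockout is not checked by the ZBTB48 promoter, which was open in all 8 libraries. MTFP1, a gene of a mitochondrial fission protein that was read as a check of the labels, had a promoter peak in 3 of 4 WT libraries and in 0 of 4 KO libraries.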

How the data were processed

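FAIRE-seq peak lists of 8 U2OS libraries were analysed. As described in the methods, the authors trimmed adapters with Trimmomatic, mapped reads to GRCh38 with Bowtie2 2.2.5, filtered them on mapping quality by SAMtools 1.14, and used MACS 2.2.7.1 in paired-end mode as the peak caller. The deposited lists are 1 per library, before any step across replicates. The deposited fold enrichment is a ratio that fits summit pileup plus 1 over local background plus 1. The −log10 p and −log10 q values are the authors' own, the deposited score was not used, and the deposited summit offset gave each summit's position. Use of input as control and handling of duplicates are not given in the sources used here. No list shared more than 0.0179% of its intervals with another. Read depth was not analysed here, so no interval for counting error is given.

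Promoters were 500 bp either side of each GENCODE 44 TSS. The strongest peak there was expressed as its percentile within the list. WT was compared with KO over clone means (6 assignments) and IFNγ with untreated over libraries (70 assignments) by two-sided exact permutation, with Benjamini-Hochberg adjustment over 14428 promoters. Libraries of 1 clone are paired by the clone name in the labels. At the promoters open in all 8 libraries, their deviations from the means of their treatment correlated at 0.531 (WT_4), 0.535 (WT_5), 0.0644 (KO_C5) and 0.544 (KO_D2). Untreated KO_C5 correlated better with treated WT_4 (0.334). The treatment test was repeated with the clone as replicate block. As the labels do not describe separate cultures within a clone, p-values measure only the spread between these samples. Summit fragments and local background were solved from fold and −log10 p, for −log10 p under 250, with a tolerance of 0.02 in −log10 p. Regions were joined at 1 bp of overlap. Python 3.11.15, numpy 2.4.6, pandas 2.3.3, scipy 1.17.1 and matplotlib 3.10.9 were used, and the scripts were tested on simulated data. Genes with values in the text had a peak in at least 6 libraries, a pattern by genotype or treatment, were among the 2 largest differences in either direction (which takes in PCDHB2 and PCDHA11), or were C-type genes. PCDHGB4 and PCDHA5 were added to complete the open genes, after their values were seen. The genes, lists and tests were chosen with earlier results of these data known.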

Additional observations from a re-analysis of the deposited data

How the results depend on the processing

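Of 19 alternatives, the ones that changed a count were mainly those that removed peaks. With all lists shortened to the 16730 strongest peaks, 3 clustered protocadherin genes had a promoter peak in place of 7, 10 regions were open across the 3 clusters in place of 26, and 1 exon region of untreated WT_4 was left in place of 8. Since fewer peaks were kept, weak peaks were lost by construction. Leaving out 1 library at a time gave 15 to 26 regions, and 15 came from leaving out untreated WT_4. The same left 0 to 2 genes with a pattern of presence by genotype or treatment, where the full set had 0, and dropping a library makes such a pattern easier to meet. With equal lists the IFNγ minus untreated percentile of PCDHAC1 was −10.9 in place of 2.84, that of PCDHAC2 was 0.276 in place of 19.4, and the WT minus KO percentile was 9.89 in place of 16.4 at PCDHAC1, 14.5 in place of 25.1 at PCDHAC2 and −2.07 in place of 6.44 at PCDHGC3. Leaving out each library in turn, the IFNγ minus untreated percentile of PCDHAC1 ran from −3.56 (without untreated KO replicate 2) to 8.62 and was −0.735 without treated WT replicate 2, and it ran from 16.3 to 41.8 at PCDHGC3, from 11.8 (without untreated KO replicate 1) to 27.7 at PCDHAC2 and from 6.37 to 23.2 at PCDHGB4. The WT minus KO percentile ran from −9.63 (without untreated KO replicate 1, the library in which it has no peak) to 22.5 at PCDHGC3, which was at −0.275 without treated WT replicate 1, and from −4.78 (without treated WT replicate 2) to 20.5 at PCDHGB4. PCDHAC2 had an unadjusted exact permutation p of 0.0286 for IFNγ without untreated WT replicate 1, and 0.2 to 1 over its other alternatives. With the replicate block the number of promoters past an adjusted p of 0.05 stayed 0 of 14428, and the smallest p the test allows was 0.125. PCDHGC3 was 1 of 2271 promoters with p = 0.125 in that paired exact permutation test. Requiring a fold of at least 4 or −log10 q of at least 3, windows of 250 and 1000 bp, and summits inside the window left 7 open genes, and counting only the most 5′ start left 6, without PCDHA11. The pattern of 4 libraries, the coding share and the non-overlap of folds were chosen after seeing the data. Peak lists without read counts limit all of these comparisons to what passed the caller's threshold.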
